A study of Mus musculus with 11 samples.

Results

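The expression of 40 genes of the dividing cell, 20 that act in DNA replication and 20 that act in mitosis, was followed in neonatal mouse skin from which regulatory T cells (Tregs) had been removed at different ages. The genes were chosen by name for their role, by a rule that uses no measured value although earlier results of these data were known, from the 49315 genes of the count table, and all 40 were among the 18375 genes that passed the filter on low counts. The replication genes are Mcm2, Mcm3, Mcm4, Mcm5, Mcm6, Mcm7, Cdc6, Cdt1, Cdc45, Gins1, Gins2, Rrm1, Rrm2, Tyms, Pola1, Pcna, Rfc3, Rfc4, Fen1 and Uhrf1. The mitosis genes are Mki67, Top2a, Cdk1, Ccna2, Ccnb1, Ccnb2, Bub1, Bub1b, Mad2l1, Cdc20, Aurka, Aurkb, Plk1, Birc5, Tpx2, Kif11, Kif20a, Kif23, Cenpe and Cenpf. Bulk RNA sequencing was run on whole skin from 11 Foxp3-DTR mice, 1 per library. The library titles share a prefix, which does not by itself show that they were of 1 batch. Foxp3-DTR mice carry the diphtheria toxin (DT) receptor under control of Foxp3, the gene that defines Tregs. Given to them, DT removes Foxp3-expressing cells wherever they are in the body and not in skin alone. Control mice (n = 2) were labelled PBS, without DT. ΔETreg mice (EarlyDT, n = 3) received DT on P6 and P8, ΔLTreg mice (LateDT, n = 3) on P10 and P12, and ΔTreg mice (FullDT, n = 3) on P6, P8, P10 and P12. Skin was taken a day after the last dose, on P9 for ΔETreg and on P13 for ΔLTreg and ΔTreg mice. The labels do not give the day for the control mice, and the same 2 libraries served in every comparison with control, so that age and treatment cannot be told apart there.

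A cell that enters S phase copies its DNA with a helicase built on the Mcm proteins, which is loaded at origins by Cdc6 and Cdt1, switched on by Cdc45 and the GINS proteins, and followed by polymerases, the Pcna clamp and its loader. The cell then enters mitosis under Cdk1 and its cyclins, and kinesins, kinetochore proteins and the spindle checkpoint separate the chromosomes. Transcripts of the first set are made mainly from late G1 through S phase, under E2F factors, and those of the second in G2 and mitosis, largely through promoters with a CHR element bound by the DREAM and MuvB complexes. In neonatal skin the dividing cells are chiefly basal keratinocytes, hair matrix cells, dermal fibroblasts and immune cells, and in bulk RNA fewer dividing cells and less RNA of these genes per cell cannot be told apart.

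Total counts ranged from 23377571 to 34159435 per library, and no 2 libraries held the same values. Members had between 138 (Fen1) and 12274 (Mki67) counts in a library, and the median coefficient of variation of a member among mice of a group was between 3.19% and 6.28%. Foxp3 itself had only 9 to 23 counts in any library and overlapped between the groups, so it gives no check of the depletion at this depth. Skin markers were present in all mice, with the summed basal keratinocyte genes at 7315 to 10080 CPM (counts scaled to the library size by the TMM method).

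The start regions of the leading genes are shown because the members differ in the promoter letters that go with these 2 phases. They are the members that come first by p-value in ΔLTreg against control and whose start region was in the RefSeq table (build GRCm38.p6). Kif20a and Mcm4 were also among the leading 4 of their lists. Each run holds 250 bases before and 50 after the annotated start and reads 5′ to 3′ along the gene. Capitals mark every match, on either strand, to an E2F site (TTTCCCGC, TTTCGCGC, TTTGCCGC or TTTGGCGC), a CHR element (TTTGAA or TTCGAA) or a CCAAT box (CCAAT), and adjoining or overlapping matches run together. The replication genes are Pola1 (chrX:93632106-93632405, minus strand), the catalytic subunit of the polymerase that makes primers, and the helicase subunits Mcm7 (chr5:138171834-138172133, minus strand, the first of 2 entries) and Mcm6 (chr1:128359656-128359955, minus strand).
Pola1: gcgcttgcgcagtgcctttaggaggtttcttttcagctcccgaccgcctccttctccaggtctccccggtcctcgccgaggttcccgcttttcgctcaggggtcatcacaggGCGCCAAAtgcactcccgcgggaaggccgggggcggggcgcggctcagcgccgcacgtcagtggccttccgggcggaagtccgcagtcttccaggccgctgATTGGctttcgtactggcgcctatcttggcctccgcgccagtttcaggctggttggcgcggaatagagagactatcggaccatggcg
Mcm7: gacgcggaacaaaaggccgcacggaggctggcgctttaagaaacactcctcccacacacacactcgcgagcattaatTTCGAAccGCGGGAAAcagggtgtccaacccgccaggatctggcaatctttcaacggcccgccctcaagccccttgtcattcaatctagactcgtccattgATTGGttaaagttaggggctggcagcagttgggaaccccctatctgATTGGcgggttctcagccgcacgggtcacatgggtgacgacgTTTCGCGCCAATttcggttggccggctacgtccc
Mcm6: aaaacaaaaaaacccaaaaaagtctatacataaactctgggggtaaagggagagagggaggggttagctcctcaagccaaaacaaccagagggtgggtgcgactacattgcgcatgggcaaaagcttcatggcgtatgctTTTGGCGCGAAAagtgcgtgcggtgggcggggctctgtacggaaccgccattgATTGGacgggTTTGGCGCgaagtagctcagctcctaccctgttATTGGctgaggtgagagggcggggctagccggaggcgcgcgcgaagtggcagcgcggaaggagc
The mitosis genes are the spindle checkpoint kinase Bub1 (chr2:127831810-127832109, minus strand), the checkpoint protein Bub1b (chr2:118597961-118598260, plus strand) and the mitotic cyclin Ccnb2 (chr9:70421505-70421804, minus strand).
Bub1: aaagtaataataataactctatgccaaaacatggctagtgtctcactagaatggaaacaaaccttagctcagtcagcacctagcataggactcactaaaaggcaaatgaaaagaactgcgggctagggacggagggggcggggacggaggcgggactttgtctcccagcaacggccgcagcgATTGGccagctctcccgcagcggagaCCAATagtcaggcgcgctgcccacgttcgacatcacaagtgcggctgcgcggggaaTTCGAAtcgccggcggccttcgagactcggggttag
Bub1b: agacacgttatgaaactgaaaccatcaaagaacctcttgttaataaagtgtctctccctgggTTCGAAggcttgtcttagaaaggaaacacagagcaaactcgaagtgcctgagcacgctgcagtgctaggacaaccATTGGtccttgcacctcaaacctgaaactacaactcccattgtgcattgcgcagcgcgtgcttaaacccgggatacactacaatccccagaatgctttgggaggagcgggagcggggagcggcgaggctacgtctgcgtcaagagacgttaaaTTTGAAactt
Ccnb2: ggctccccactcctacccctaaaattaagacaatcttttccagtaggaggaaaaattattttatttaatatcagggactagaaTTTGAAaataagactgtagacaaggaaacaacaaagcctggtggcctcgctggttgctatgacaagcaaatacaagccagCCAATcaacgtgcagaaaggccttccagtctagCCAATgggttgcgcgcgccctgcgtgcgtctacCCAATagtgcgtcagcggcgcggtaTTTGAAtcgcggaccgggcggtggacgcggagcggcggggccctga
The E2F match of Pola1 began at base -138 and those of Mcm6 at -110, -106 and -47, counted from the start. Mcm7 had 1 at -165 and 1 at 17 past the start, the latter joined to a CCAAT box. Mcm7, a replication gene, also had a CHR match, at -173. Bub1 had a CHR match at 15, Bub1b at -188 and 41, and Ccnb2 at -167 and 5, with 3 CCAAT boxes in Ccnb2 at -87, -54 and -21.

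Start regions were found for 17 of the 20 replication genes and 16 of the 20 mitosis genes. An E2F match stood in 9 of 17 replication genes (52.9%), in 1 of 16 mitosis genes (6.25%, Cdk1) and in 2.6% of all 27025 genes of the table. A CHR match stood in 5 of 17 replication genes (29.4%), 12 of 16 mitosis genes (75%) and 21.7% of all genes, and a CCAAT box in 12 of 17 (70.6%), 14 of 16 (87.5%) and 41.1%. The members' start regions were rich in G and C, with medians of 57.5% and 58.3% against 52.7% for all promoters. Among the 8203 genes with a GC content between 54.2% and 65.2%, the shares were 3.88% for E2F, 13.2% for CHR and 39.4% for CCAAT. These matches describe letters in a window and are no evidence of binding.

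Per kilobase of exon, the highest control levels were those of Pcna, the sliding clamp (56.5 CPM per kb), of Cdc20, the activator of the anaphase-promoting complex (38.8), and of Mki67, the proliferation antigen Ki-67 (38.5). The lowest were those of Pola1 (2.57) and of the origin licensing factor Cdc6 (2.29). The mitosis genes ran from 4.02 (Mad2l1) to 38.8, and Cdc6, Pola1, Gins2 and Fen1 lay below all of them. Of the 40 members, 8 overlap a protein-coding gene on the other strand and 1, Cdt1, on the same strand; Cdc20, Mcm7, Ccna2, Kif20a and Rfc4 are among the former. Whether reads were counted by strand is not given in the sources used here, so part of the counts of these genes may belong to the neighbour.

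**Figure D1:**
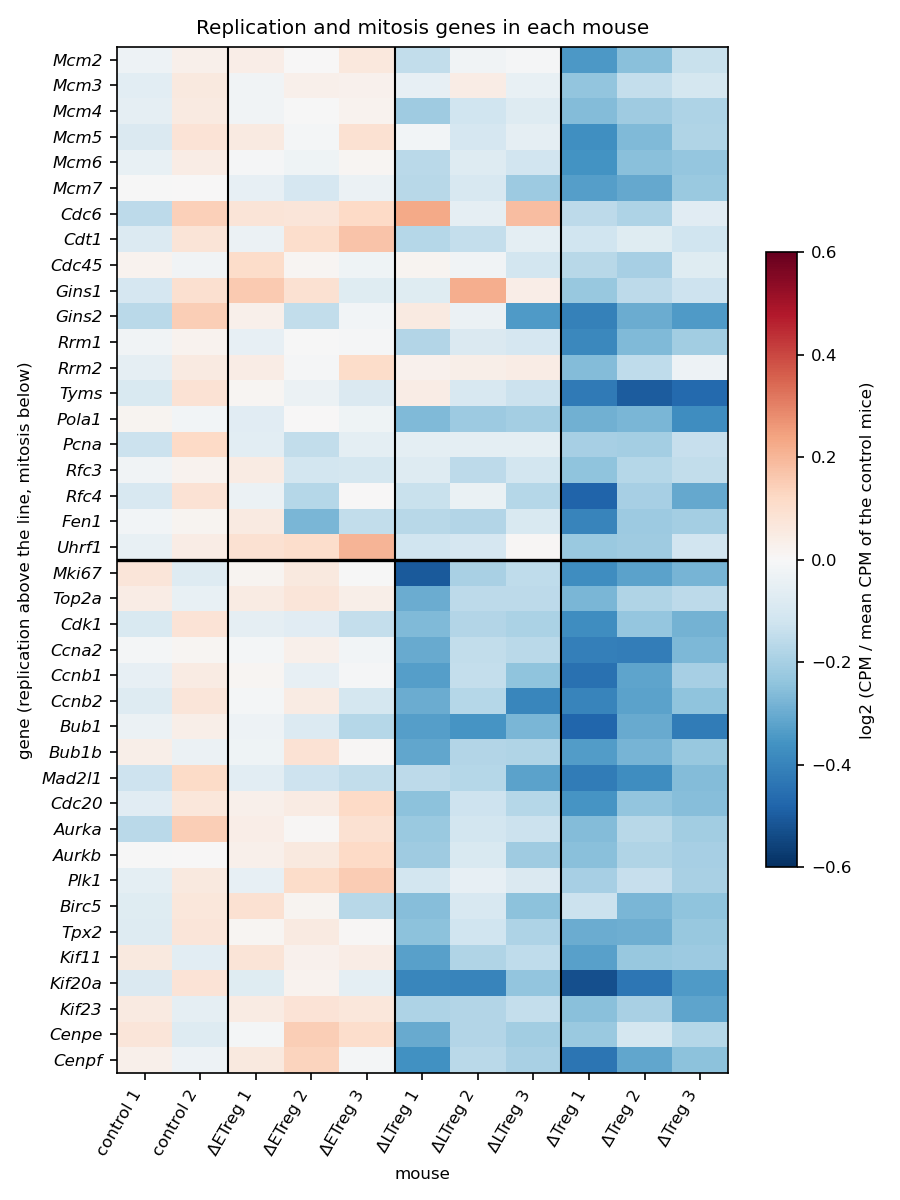
Heat map of the 40 genes (rows) in the 11 mice (columns), with colour for the log2 ratio of CPM to the mean of the 2 control mice. The mitosis rows are blue in all 6 mice taken on P13, whereas most replication rows are clearly blue only in the 3 ΔTreg mice.

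Early depletion alone left both sets close to control. In ΔETreg against control, 0 of 20 replication and 0 of 20 mitosis genes passed an adjusted p of 0.05 in edgeR, where 0.00544% of all genes tested did (1 gene, which rose). The median log2 fold change was -0.004 for the replication genes, 0.02 for the mitosis genes and -0.01 for all genes. At an unadjusted p under 0.05 there were 1 replication gene, Uhrf1, and 0 mitosis genes, against 4.75% of all genes, and DESeq2 and edgeR on these 5 mice alone also called 0 members.

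Uhrf1, which guides maintenance of DNA methylation behind the fork, stood at 93.0 and 98.9 CPM in control and at 102, 103 and 110 in ΔETreg skin (log2 fold change 0.13, SE 0.06, edgeR adjusted p = 0.9998). Every ΔETreg mouse lay above both control mice for Uhrf1 and for the kinase Aurkb (40.2 and 40.3 against 41.1, 41.9 and 43.7 CPM), and below both for Mcm7 (92.8 and 93.1 against 89.8, 86.8 and 90.6). Such full separation downwards was found for 10.3% of all genes and upwards for 9.35%. The other leading members by p were Pcna (-0.09), Cdt1 (0.08), Mad2l1 (-0.11), Cdk1 (-0.09) and Bub1 (-0.09), all with an edgeR adjusted p of 0.9998. With 2 control mice the 95% interval of Mki67, for instance, was from -0.19 to 0.23 on the log2 scale, so a change within it cannot be told from none. A larger change could also miss the threshold, as that of Mki67 in ΔLTreg skin against control did (-0.28, edgeR adjusted p = 0.130).

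In ΔLTreg skin all 20 mitosis genes and 17 of 20 replication genes had a negative log2 fold change against control, and few passed the test. Of the mitosis genes, 2 fell, Kif20a and Bub1, where 4.55% of all genes passed and 2.69% fell. Of the replication genes 0 passed in edgeR, DESeq2 or edgeR on these groups alone. The median log2 fold change was -0.21 for mitosis genes, -0.08 for replication genes and 0.004 for all genes. At an unadjusted p under 0.05, 18 of 20 mitosis genes and 4 of 20 replication genes were lower, against 10.5% of all genes. For 18 mitosis and 7 replication genes both control mice lay above all 3 ΔLTreg mice, against 17.2% of all genes, and the exceptions among the mitosis genes were the kinases Aurka and Plk1.

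Kif20a, a kinesin of the central spindle needed for cytokinesis, was measured at 38.3 and 42.9 CPM in control, 38.6, 41.2 and 39.0 in ΔETreg mice, 31.0, 30.8 and 34.5 in ΔLTreg mice and 28.2, 30.1 and 32.1 in ΔTreg mice. Its control and ΔETreg values overlapped, and all 6 mice of P13 lay below them. It fell by 20.9% in ΔLTreg skin (log2 fold change -0.34, SE 0.08, edgeR adjusted p = 0.0349). Bub1 was measured at 20.2 and 21.2 CPM in control, 20.3, 19.6 and 18.4 in ΔETreg mice, 16.5, 16.2 and 17.1 in ΔLTreg mice and 14.9, 16.8 and 15.5 in ΔTreg mice. The same 6 mice lay below the other 5. It fell by 19.8% in ΔLTreg skin (log2 fold change -0.32, SE 0.07, edgeR adjusted p = 0.0378). Next in order came Bub1b (-0.22, edgeR adjusted p = 0.0633) and Ccnb2 (-0.29, 0.0724). Mki67 stood at 407 and 367 CPM in control and at 273, 338 and 348 in ΔLTreg skin, without overlap (-0.28, SE 0.09, edgeR adjusted p = 0.130).

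Among the replication genes the leading member was Pola1, at 22.9 and 22.4 CPM in control, 21.6, 22.7 and 22.3 in ΔETreg mice, 18.9, 19.5 and 19.7 in ΔLTreg mice and 18.6, 18.7 and 17.5 in ΔTreg mice. All P13 mice lay below the others, with a log2 fold change of -0.23 (SE 0.06, edgeR adjusted p = 0.0624) for ΔLTreg against control. Mcm7 (-0.16), Mcm4 (-0.13) and Mcm6 (-0.12) followed, with edgeR adjusted p of 0.108, 0.198 and 0.232. Other members were near control: Mcm3 at -0.02 (95% interval -0.14 to 0.11), Rrm2 at 0.04 (-0.11 to 0.18) and Tyms at -0.06 (-0.22 to 0.11). The 2 calls rest on single libraries and on the fit, since leaving out 1 mouse gave between 0 and 2 calls, with 0 without control mouse 1, control mouse 2, ΔETreg mouse 3 or ΔLTreg mouse 1 and 1 without ΔETreg mouse 1 or 2, ΔLTreg mouse 2 or 3 or ΔTreg mouse 2 or 3. DESeq2, edgeR on these groups alone and scaling by library size each gave 0.

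**Figure D2:**
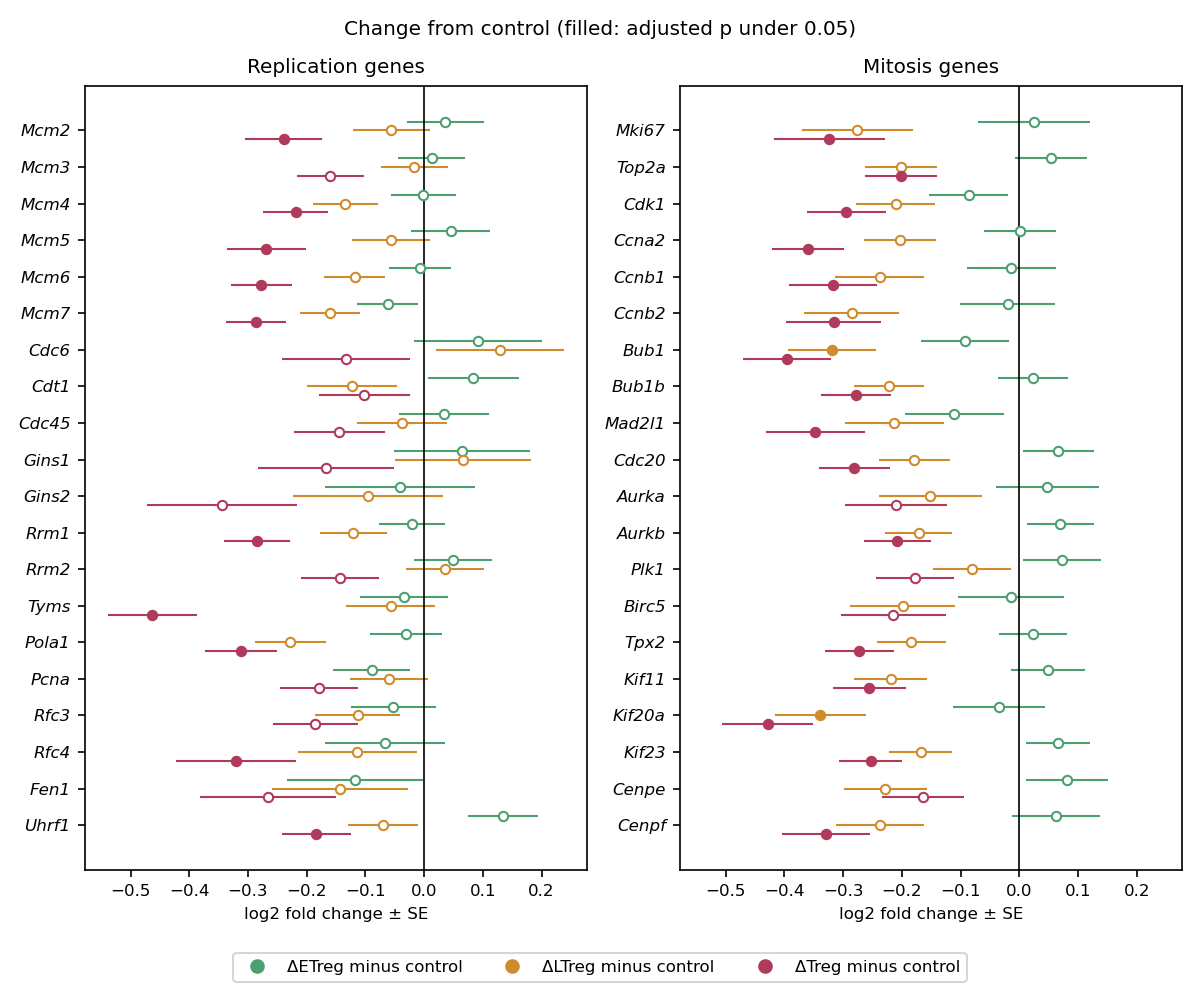
Log2 fold change against control with its standard error (x axis) for the 20 replication genes (left) and the 20 mitosis genes (right), with filled points where the adjusted p was under 0.05. ΔETreg points scatter about 0, ΔLTreg points lie between 0.13 and -0.23 for replication and between -0.08 and -0.34 for mitosis genes, and all ΔTreg points lie below 0.

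After 4 doses both sets were lower than in control. In ΔTreg skin 10 of 20 replication genes and 16 of 20 mitosis genes fell and none rose, where 21.5% of all genes passed and 9.39% fell. The median log2 fold change was -0.23 for replication genes, -0.28 for mitosis genes and -0.01 for all genes. Every ΔTreg mouse lay below both control mice for 17 and 20 members, against 25.8% of all genes, and Cdc6, Cdt1 and Rrm2 were the exceptions.

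By role, 5 of the 6 Mcm helicase subunits fell, with Mcm7 and Mcm6 first. Mcm6 was measured at 90.5 and 96.0 CPM in control, 92.7, 91.7 and 94.0 in ΔETreg mice, 83.3, 88.4 and 86.0 in ΔLTreg mice and 72.8, 78.4 and 79.5 in ΔTreg mice, so that the 3 groups of values stepped down without overlap from control through ΔLTreg to ΔTreg. It fell by 17.5% in ΔTreg skin (log2 fold change -0.28, SE 0.05, edgeR adjusted p = 0.00319), and Mcm7 by 17.97% (-0.29, SE 0.05, 0.00247). The sixth subunit, Mcm3, stood at -0.16 (edgeR adjusted p = 0.0705). Of the 5 licensing and activation factors, Cdc6, Cdt1, Cdc45, Gins1 and Gins2, 0 passed, with log2 fold changes from -0.34 (Gins2) to -0.10 (Cdt1). The standard errors of Cdc6, Gins1 and Gins2, which had few counts, were 0.11 to 0.13.

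Of the 3 genes of nucleotide supply 2 fell. Tyms, which makes thymidylate (GRCm38, chromosome 5, 30058202 to 30073617, minus strand), was measured at 25.4 and 28.6 CPM in control, 27.2, 26.4 and 25.5 in ΔETreg mice, 27.9, 25.3 and 24.7 in ΔLTreg mice and 20.1, 19.1 and 19.5 in ΔTreg mice. The first 3 groups overlapped and the ΔTreg mice lay apart below them. It fell by 27.4% against control (log2 fold change -0.46, SE 0.08, edgeR adjusted p = 0.00142), the largest change of the 40 members in this comparison. Rrm1, the large subunit of ribonucleotide reductase, fell by 17.9% (-0.28, SE 0.06, edgeR adjusted p = 0.00443), and its partner Rrm2 stood at -0.14 (edgeR adjusted p = 0.155). Of the polymerase and clamp genes, Pola1 fell by 19.4% (-0.31, SE 0.06, edgeR adjusted p = 0.00423) and the clamp loader subunit Rfc4 by 19.9% (-0.32, edgeR adjusted p = 0.0452), and Uhrf1 fell too (-0.18, edgeR adjusted p = 0.0476). Pcna stood at 124 and 147 CPM in control and at 118, 118 and 123 in ΔTreg skin, with the control mice further apart than the group means (-0.18, edgeR adjusted p = 0.0781).

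Among the mitosis genes all 4 of Cdk1 and its cyclins fell, all 4 of the spindle checkpoint and its target Cdc20, both chromosome genes Mki67 and Top2a, 4 of 5 kinesin and kinetochore genes and 2 of 5 mitotic kinases and partners. Ccna2, the cyclin of S phase and early mitosis, was measured at 64.9 and 65.8 CPM in control, 64.8, 66.8 and 64.6 in ΔETreg mice, 53.02, 59.1 and 58.4 in ΔLTreg mice and 49.3, 49.1 and 54.3 in ΔTreg mice. It fell by 22.1% in ΔTreg skin (log2 fold change -0.36, SE 0.06, edgeR adjusted p = 0.00179). Kif20a fell by 25.7% (-0.43, SE 0.08, edgeR adjusted p = 0.00268), Bub1 by 23.99% (-0.40, SE 0.07, 0.00335) and Tpx2, the partner that brings Aurka to the spindle, by 17.2% (-0.27, SE 0.06, 0.00678). Mki67 stood at 299, 310 and 319 CPM in ΔTreg skin and fell by 20.1% (-0.32, SE 0.09, edgeR adjusted p = 0.0321). Aurka, Plk1, Cenpe and Birc5 did not pass, at -0.21, -0.18, -0.16 and -0.21, each with every ΔTreg mouse below both control mice. Without control mouse 2 these counts were 5 and 7, without control mouse 1 they were 12 and 10, and without ΔTreg mouse 1 the replication count was 5.

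**Figure D3:**
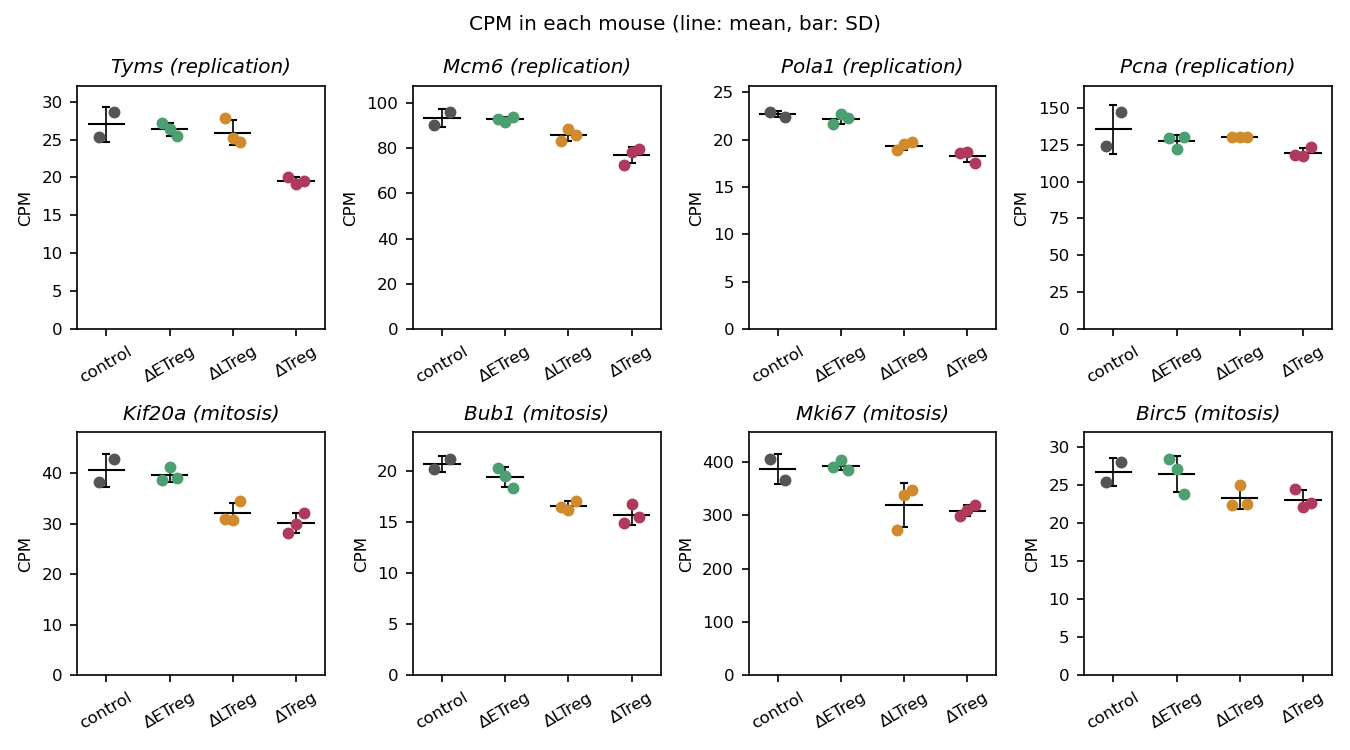
CPM (y axis, from 0) in each mouse by group for 4 replication genes (top) and 4 mitosis genes (bottom), with the mean as a line and the SD as a bar. Tyms drops only in ΔTreg mice (20.1, 19.1 and 19.5 CPM), Pola1, Kif20a and Bub1 are lower in both P13 groups, and Pcna and Birc5 passed the test in none of the comparisons.

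The ΔTreg and ΔLTreg mice were both taken on P13 and share no control, so this comparison sets 4 doses against the last 2 at 1 age. Of the replication genes 4 were lower in ΔTreg skin, Tyms, Mcm5, Mcm6 and Rrm1, and of the mitosis genes 0, where 16.8% of all genes passed and 6.11% were lower. The median log2 fold change was -0.15 for replication genes, -0.08 for mitosis genes and -0.004 for all genes. Every ΔTreg mouse lay below every ΔLTreg mouse for 13 replication and 2 mitosis genes, against 16.7% of all genes. At an unadjusted p under 0.05, 11 replication genes and 1 mitosis gene were lower, against 14.1% of all genes. The difference between the lists was not tested.

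Tyms was lower by 24.5% (log2 fold change -0.41, SE 0.07, edgeR adjusted p = 0.00196), and it stayed past the threshold under every alternative and with each mouse left out (highest adjusted p 0.0111). Mcm5, with 84.0, 79.3 and 81.8 CPM in ΔLTreg and 65.8, 70.7 and 74.97 in ΔTreg skin, was lower by 13.7% (-0.21, SE 0.06, edgeR adjusted p = 0.0327). Mcm6 was lower by 10.5% (-0.16, SE 0.05, 0.0386) and Rrm1 by 10.7% (-0.16, SE 0.05, 0.0477). In all 4 genes the groups did not overlap. Among the mitosis genes Ccna2 came first (-0.16, SE 0.06, edgeR adjusted p = 0.0764), followed by Cdc20 (-0.10, 0.235), Mad2l1 (-0.13, 0.264) and Kif23 (-0.09, 0.272). Top2a, which untangles sister chromatids, stood at 189, 207 and 208 CPM in ΔLTreg and at 191, 205 and 208 in ΔTreg skin, with a difference of 0.00 (95% interval -0.12 to 0.12), and Mki67 differed by -0.05 (-0.24 to 0.14). The replication count was 1, Tyms alone, by DESeq2 and by edgeR on these groups alone, 2 without the filter, 1 without ΔTreg mouse 1, ΔTreg mouse 2 or ΔETreg mouse 1, and 2 without ΔETreg mouse 2, ΔETreg mouse 3 or ΔLTreg mouse 3. The mitosis count was 1 without ΔLTreg mouse 1 or ΔTreg mouse 3.

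Against the ΔETreg mice, which give a comparison without the 2 control libraries, more mitosis than replication genes passed, and the difference between the lists was not tested. The ΔLTreg and ΔTreg libraries are those of the comparisons with control. In ΔLTreg against ΔETreg skin 1 replication gene, Uhrf1, and 10 mitosis genes fell, where 6.38% of all genes passed and 3.27% fell, and the medians were -0.07, -0.24 and 0.01 for all genes. All 5 kinesin and kinetochore genes were among the 10, with Cenpe, a kinetochore motor, first (41.8, 46.7 and 45.4 CPM against 34.2, 37.4 and 36.5, log2 fold change -0.31, SE 0.06, edgeR adjusted p = 0.0178). Kif23 (-0.23, SE 0.05, edgeR adjusted p = 0.0190), Kif11 (-0.27, SE 0.06, 0.0199) and Aurkb (-0.24, SE 0.05, 0.0208) followed. Uhrf1 fell by 13.2% (-0.20, SE 0.05, edgeR adjusted p = 0.0459), and Pola1 (-0.20, 0.0578), Cdt1 (-0.21, 0.102) and Mcm4 (-0.13, 0.138) did not pass. Every ΔLTreg mouse lay below every ΔETreg mouse for 19 mitosis and 8 replication genes, against 12.6% of all genes. Age and DT regimen differ together between these groups and cannot be told apart. The mitosis count was 2 by edgeR on these groups alone, and 3, 0, 1 and 5 without ΔETreg mouse 1, 2 or 3 or ΔLTreg mouse 1, and the replication count was 0 by DESeq2, by edgeR on these groups alone and without any 1 of the ΔETreg or ΔTreg mice, ΔLTreg mouse 1 or ΔLTreg mouse 2.

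In ΔTreg against ΔETreg skin 11 replication and 19 mitosis genes fell, where 23.1% of all genes passed and 9.81% fell, with medians of -0.23, -0.30 and -0.002 for all genes. All 6 Mcm genes and all 3 genes of nucleotide supply were among the 11, with Tyms first (-0.43, SE 0.07, edgeR adjusted p = 0.000948), then Uhrf1 (-0.32, SE 0.05, 0.00130), Mcm6 (-0.27, SE 0.05, 0.00162) and Mcm5 (-0.31, SE 0.06, 0.00305). Of the mitosis genes Birc5 alone did not pass (-0.20, edgeR adjusted p = 0.0999), and Kif23 (-0.32, SE 0.05, 0.000715), Ccna2 (-0.36, SE 0.06, 0.000725), Cdc20 (-0.35, SE 0.05, 0.000857) and Tpx2 (-0.30, SE 0.05, 0.00184) were among those that fell. Every ΔTreg mouse lay below every ΔETreg mouse for 18 and 19 members, against 21.7% of all genes. The ΔTreg libraries are shared between this comparison and that with control, and 9 replication and 16 mitosis genes passed both. The share of all genes that passed both was not counted.

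**Figure D4:**
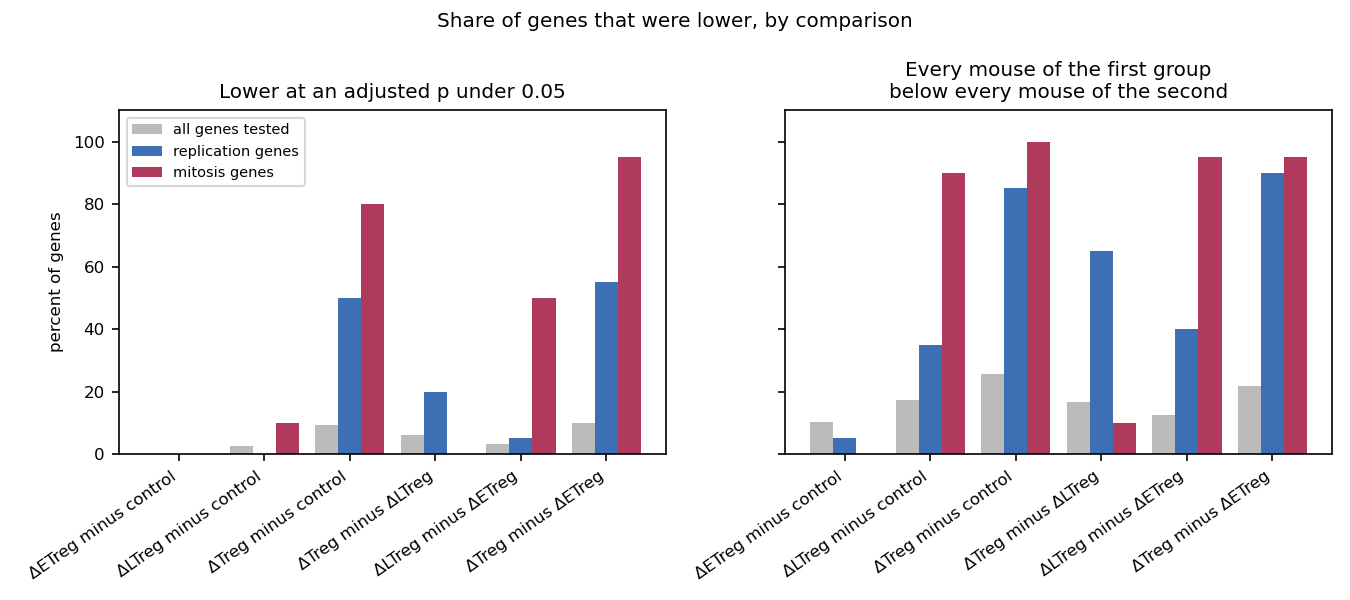
Percent of genes (y axis) that were lower at an adjusted p under 0.05 (left), or with every mouse of the first group below every mouse of the second (right), in each of the 6 comparisons, for all genes tested, the replication genes and the mitosis genes. The mitosis bar is the higher of the lists where a P13 group is set against control or ΔETreg, and the replication bar is the higher in ΔTreg minus ΔLTreg (20% against 0%, and 65% against 10%).

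Across all comparisons 8 replication genes, Pcna, Gins1, Gins2, Cdc45, Cdc6, Cdt1, Rfc3 and Fen1, and 1 mitosis gene, Birc5, passed in none. The share of all genes that passed in none was not counted, so these numbers have no background to be read against. Cdc6 was the member whose values ran highest in ΔLTreg skin, at 14.0, 11.6 and 13.6 CPM against 10.8 and 13.2 in control and 10.8, 10.5 and 11.4 in ΔTreg skin (ΔTreg minus ΔLTreg -0.26, SE 0.10, edgeR adjusted p = 0.0926). Gins1 and Rrm2 were the other members with a positive difference between ΔLTreg and control, at 0.07 and 0.04. No member rose past the threshold in any comparison, against 0.00544%, 1.86% and 12.1% of all genes in ΔETreg, ΔLTreg and ΔTreg skin against control, 10.7% in ΔTreg minus ΔLTreg, and 3.12% and 13.2% in ΔLTreg and ΔTreg minus ΔETreg.

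As the mean of log2 CPM minus the control mean, the replication genes stood at -0.08, -0.06 and -0.08 in the ΔLTreg mice and at -0.29, -0.22 and -0.19 in the ΔTreg mice, while the control mice stood at -0.06 and 0.06 and enclosed the 3 ΔETreg mice. The mitosis genes stood at -0.28, -0.17 and -0.20 in ΔLTreg and at -0.34, -0.26 and -0.25 in ΔTreg mice, with the control mice at -0.03 and 0.03, and ΔLTreg mouse 1 lay within the range of the ΔTreg mice. The replication mean thus exceeded the mitosis mean by 0.20, 0.10 and 0.12 in ΔLTreg mice and by 0.04, 0.04 and 0.06 in ΔTreg mice, and the difference was between -0.06 and 0.03 in control and ΔETreg mice. Within groups the members also moved together. Control mouse 1 had the lower value for 18 of 20 replication genes and 13 of 20 mitosis genes, ΔLTreg mouse 1 was lowest for 15 mitosis genes, and ΔTreg mouse 1 was lowest for 14 replication and 17 mitosis genes.

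**Figure D5:**
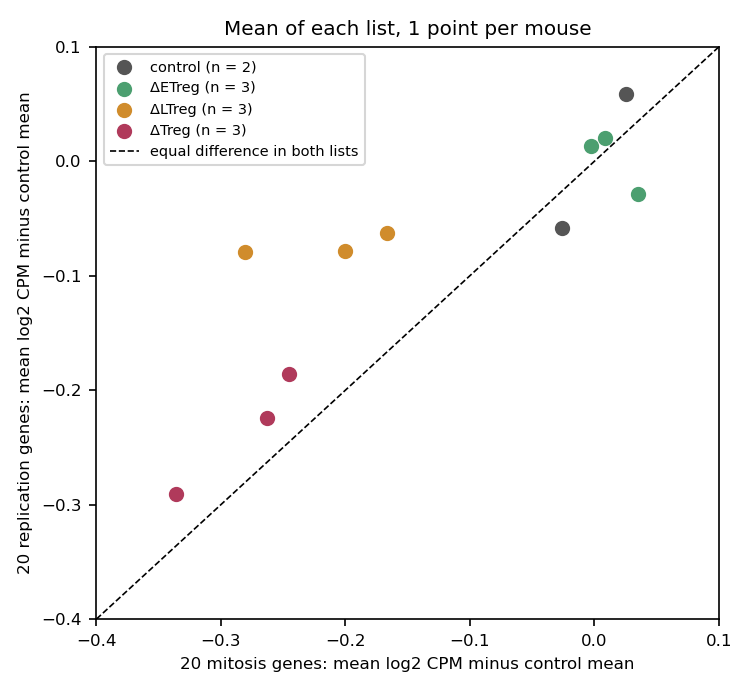
Mean log2 CPM minus the control mean over the 20 mitosis genes (x axis) and the 20 replication genes (y axis), 1 point per mouse, with a dashed line where both differ equally. The 3 ΔLTreg mice lie above the line, low for mitosis (-0.28 to -0.17) and near control for replication (-0.08 to -0.06), and the 3 ΔTreg mice are low for both.

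Wider lists of the same pathways were counted in the same way. Of 46 other replication and S-phase genes, 0 passed in ΔETreg, 1 fell in ΔLTreg and 11 fell in ΔTreg skin against control, with medians of -0.002, -0.08 and -0.20, and 5 were lower in ΔTreg than in ΔLTreg skin. Of all genes 2.69% fell in ΔLTreg and 9.39% in ΔTreg skin against control, and 6.11% were lower in ΔTreg than in ΔLTreg skin. The 1 gene in ΔLTreg was Pold1, the catalytic subunit of polymerase delta (-0.22, SE 0.05, edgeR adjusted p = 0.0395). Those lower in ΔTreg than in ΔLTreg skin were Rfc5 (-0.26), Tipin (-0.24), Usp1 (-0.16), Dut, which with Tyms supplies thymidylate (-0.26), and Rpa2, a single-strand binding protein (-0.20), with edgeR adjusted p from 0.0105 to 0.0452. Of 60 other mitosis genes tested, 0, 3 and 32 fell against control, with medians of 0.04, -0.18 and -0.25. Between ΔTreg and ΔLTreg skin 0 of the 60 passed in edgeR, with 11 lower at an unadjusted p under 0.05, against 14.1% of all genes. The 3 in ΔLTreg were Prc1 (-0.26, SE 0.05, edgeR adjusted p = 0.0180), Aspm (-0.32, SE 0.07, 0.0322) and Ccnf (-0.23, SE 0.06, 0.0438). Against ΔETreg skin 20 of these fell in ΔLTreg and 46 in ΔTreg mice, where 3.27% and 9.81% of all genes fell. Among them was Foxm1, the transcription factor of mitotic genes (53.4, 53.1 and 55.6 CPM in ΔETreg and 40.4, 40.5 and 43.3 in ΔLTreg skin, -0.38, SE 0.06, edgeR adjusted p = 0.00512).

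Of 25 regulators of the G1 to S step, 2 fell in ΔLTreg skin and 9 fell and 2 rose in ΔTreg skin against control, where 2.69% of all genes fell in ΔLTreg skin and 9.39% fell and 12.1% rose in ΔTreg skin. Ccnd1, cyclin D1, which starts the cycle with Cdk4 and Cdk6, changed more than any member. It was measured at 189 and 214 CPM in control, 179, 176 and 171 in ΔETreg mice, 131, 105.3 and 106 in ΔLTreg mice and 84.6, 82.0 and 91.5 in ΔTreg mice, with no overlap between any of these groups. Its log2 fold change against control was -0.82 (SE 0.09, edgeR adjusted p = 0.00118) in ΔLTreg and -1.23 (SE 0.09, 1.01e-05) in ΔTreg skin. Ccnd2 fell as well (-0.26 and -0.49, edgeR adjusted p = 0.0393 and 0.000285), and Cdk6 rose in ΔTreg skin (0.33, SE 0.05, 0.00133).

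Of 17 cell cycle inhibitors and p53 targets, 3 rose in ΔLTreg skin, Gadd45a (0.53, SE 0.07, edgeR adjusted p = 0.00255), Sesn2 (0.35, 0.0195) and the Cdk4 inhibitor Cdkn2b (0.38, 0.0286), and 5 rose and 3 fell in ΔTreg skin. Of all genes 1.86% rose in ΔLTreg skin, and 12.1% rose and 9.39% fell in ΔTreg skin. Gadd45a stood at 22.7 and 23.4 CPM in control, 31.9, 34.1 and 33.5 in ΔLTreg mice and 28.2, 31.0 and 32.0 in ΔTreg mice. Cdkn1c, an imprinted inhibitor, fell in ΔTreg skin from 40.9 and 50.03 to 14.8, 18.5 and 23.4 CPM (-1.26, SE 0.19, edgeR adjusted p = 0.000756). Cdkn1a, the p53 target p21, stood at 0.06, 0.01 and 0.08 in ΔETreg, ΔLTreg and ΔTreg skin, with edgeR adjusted p of 0.9998, 0.968 and 0.637.

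The make-up of the skin moved with the groups as well, and its part in the results was not tested. Summed over 8 genes, T cell markers stood at 11.1 to 13.5 CPM in control, 10.8 to 13.5 in ΔETreg, 13.7 to 17.0 in ΔLTreg and 52.2 to 65.7 in ΔTreg skin. All 8 rose in ΔTreg skin against control, where 12.1% of all genes rose. Interferon-stimulated genes stood at 47.3 to 74.1, 58.2 to 75.7, 91.4 to 179 and 751 to 1076 CPM, and cytotoxic lymphocyte genes at 3.27 to 3.33, 2.40 to 2.96, 4.10 to 5.92 and 60.8 to 67.6 CPM. The sums of fibroblast markers, mostly collagen genes, were 18020 to 21490 CPM in control, 13580 to 24170 in ΔETreg, 8358 to 18290 in ΔLTreg and 9843 to 11150 in ΔTreg skin. All 6 genes had a negative log2 fold change against control in ΔLTreg and in ΔTreg skin. In ΔTreg minus ΔLTreg 4 were negative and 2, Pdgfra and Dcn, positive. Pdgfra stood at 32.48, 32.55 and 15.72 CPM in ΔLTreg and at 57.2, 48.16 and 58.06 in ΔTreg skin. Basal keratinocyte genes, whose cells divide, summed to 7806 to 8385, 7315 to 8449, 8629 to 10080 and 9553 to 9831 CPM, and hair matrix genes to 1964 to 2112, 1901 to 2069, 1433 to 2151 and 1801 to 1922 CPM. Every P13 mouse was thus above both control mice for the basal keratinocyte sum, and every ΔTreg mouse was below both for the hair matrix sum. The hair matrix sum of 1433 CPM was that of ΔLTreg mouse 1, the mouse of its group that was lowest for 15 mitosis genes. ΔLTreg mice 2 and 3 stood at 1917 and 2151 CPM. Of the 6 basal genes, 5 had a positive log2 fold change in ΔTreg skin against control and 1, Krt15, a negative one. Krt15 stood at 621 and 704 CPM in control and at 506, 509 and 577 in ΔTreg skin. Of the 7 hair matrix genes tested, 5 were negative and 2 positive. Hoxc13 stood at 218 and 232 CPM in control and at 243, 249 and 238 in ΔTreg skin. Of these 7 genes 1 fell in ΔLTreg and 2 in ΔTreg skin, where 2.69% and 9.39% of all genes fell. Suprabasal keratinocyte genes summed to 5939 to 7970, 4354 to 7706, 4122 to 4902 and 3995 to 4354 CPM, with every P13 mouse below both control mice. Of the 5 suprabasal genes 3 fell in ΔLTreg and 4 in ΔTreg skin, against the same 2.69% and 9.39% of all genes. Macrophage and monocyte genes summed to 115 to 166, 82.6 to 127, 74.2 to 179 and 245 to 307 CPM, and erythroid genes to 249 to 265, 141 to 237, 150 to 249.9 and 138 to 178 CPM. Skeletal muscle genes reached 4960 and 7331 CPM in ΔLTreg mice 1 and 3. They summed to 2091 in ΔLTreg mouse 2, 1466 to 2311 in control and ΔETreg mice and 1790 to 3519 in ΔTreg mice. In ΔTreg skin against control 6 of these 7 genes had a positive log2 fold change and 1, Myh8, a negative one. Myh8 stood at 368.5 and 284.9 CPM in control and at 48.02, 28.33 and 69.13 in ΔTreg skin. Imprinted growth genes known to decline after birth summed to 1908 to 1940, 1663 to 1989, 1021 to 1693 and 709 to 912 CPM. Between the ΔLTreg and ΔTreg mice, of 1 age, 5 of these 8 imprinted genes passed and were lower in ΔTreg skin, where 6.11% of all genes were. H19 made up most of each sum. Peg3 overlapped, at 90.06, 77.05 and 73.46 CPM in ΔLTreg and 77.4, 85.58 and 94.35 in ΔTreg skin. No gene of these lists was at 0 in every library. Some T cell and cytotoxic lymphocyte genes, such as Cd8a, Gzmb and Ifng, were at 0 in some control, ΔETreg or ΔLTreg libraries.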

How the data were processed

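The authors used Trimmomatic 0.36 to trim reads and STAR 2.5.2b to align them to GRCm38, counted those that fell uniquely on exons with featureCounts of Subread 1.5.2, per the labels and the study's methods, and deposited raw counts of 49315 genes in 11 libraries of 150 bp paired-end reads. The annotation release is not given in the sources used here. The main test used edgeR 4.0.16 in R 4.3.3 (filterByExpr, TMM, 1 quasi-likelihood model of the 4 groups, Benjamini-Hochberg adjustment over 18375 genes, threshold 0.05). CPM values use TMM-scaled library sizes. Replicate numbers follow the order of the labels. Labels do not say whether mice shared litters. The members and gene lists were chosen with earlier results of these data known. Full statistics are given for the 4 members of each list with the smallest p in each comparison, and up to 4 genes of each other list. Other genes and other statistics were named after their values were seen. Alternatives were DESeq2 1.42.0, edgeR on 2 groups, DESeq2 size factors, library size scaling, no filter, at least 10 counts in every library, and each mouse left out. The fit was tested on simulated data. Exon lengths and neighbours come from GENCODE M21, which held 48970 of the gene IDs.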

Additional observations from a re-analysis of the deposited data

Results flagged for a closer look

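ΔLTreg and ΔETreg skin, set directly against each other, differed by edgeR's test of ΔLTreg minus ΔETreg for 11 members, all lower in ΔLTreg skin. These were the replication gene Uhrf1 (log2 difference -0.20) and the mitosis genes Top2a (-0.26), Bub1b (-0.25), Aurkb (-0.24), Kif11 (-0.27), Kif20a (-0.30), Kif23 (-0.23), Cenpe (-0.31), Cenpf (-0.30), Tpx2 (-0.21) and Cdc20 (-0.25). Mice of the 2 groups were taken on different days, and age and the time of DT cannot be told apart.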

How the results depend on the processing

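No paired analysis was possible because the labels give the mice no replicate numbers that link one group to another. Of the 94 results on single members, recomputed under 6 alternatives and with each of 11 mice left out (1598 values), 1374 kept direction and side of the threshold, 215 were weaker, 6 stronger and 3 reversed. The 3 reversals were in ΔETreg against control without control mouse 2, and with a mouse left out the log2 fold change there ranged from -0.21 to 0.039 for Pcna, from -0.23 to 0.013 for Mad2l1 and from -0.17 to 0.0010 for Cdk1. The numbers of members that passed moved as follows. In ΔLTreg against control the mitosis count of 2 was 0 by DESeq2, by edgeR on these groups alone and by library size scaling, and 0 to 2 with a mouse left out. In ΔTreg minus ΔLTreg the replication count of 4 was 1 by DESeq2, 1 by edgeR on these groups alone and 2 without the filter, and 1 to 5 with a mouse left out, and the mitosis count of 0 was 1 by library size scaling and 0 to 1 with a mouse left out. In ΔLTreg minus ΔETreg the replication count of 1 was 0 by DESeq2 and by edgeR on these groups alone, 2 with at least 10 counts in every library and 0 to 1 with a mouse left out, and the mitosis count of 10 was 2 by edgeR on these groups alone and 0 to 11 with a mouse left out. In ΔTreg against control the counts of 10 and 16 were 5 to 12 and 7 to 16 with a mouse left out, and in ΔTreg minus ΔETreg those of 11 and 19 were 9 to 12 and 13 to 19. A fit with a mouse left out rests on fewer mice, and the cause of the other changes was not tested.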
